A study of Homo sapiens with 8 samples.

Results

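The proteasome genes of the screen were all genes whose symbol in the count table had the form PSMA, PSMB, PSMC, PSMD, PSME or PSMF followed by a number. They were 44 of the 18913 genes in the table. The screen was run with the human GeCKOv2 knockout library in MB157R, a triple-negative breast cancer line that stably expresses Cas9 and was made resistant to γ-secretase inhibition by long culture with the inhibitor. γ-Secretase is the protease that releases the active part of Notch receptors, and the inhibitor (GSI) was LY3039478. The 8 libraries were 3 cultures kept with GSI at 10 µM to day 14, 3 cultures kept with the vehicle DMSO to day 14 and 2 T0 aliquots taken before the split. All came from a single pool of transduced and puromycin-selected cells, so the GSI and DMSO cultures are splits of that pool and the T0 libraries are aliquots of it. Every cell of all 3 groups was a resistant MB157R cell, and no library of the parental line was part of the screen.

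The proteasome is the large protease that degrades proteins tagged with ubiquitin. Its barrel, the 20S core, is built of outer rings of alpha subunits and inner rings of beta subunits, and 3 of the beta subunits (PSMB5, PSMB6 and PSMB7) carry the cutting sites. A cap, the 19S particle, sits on the barrel: its base holds a ring of ATPases that unfold substrates, and its lid removes ubiquitin. Other subunits are alternative forms: PSMB8, PSMB9 and PSMB10 replace the cutting subunits in the immunoproteasome, PSMB11 replaces PSMB5 in the thymus, and PSMA8 takes the place of PSMA7 in the testis. The alternative beta forms are called tissue-restricted below as a class name only. The screen does not measure their expression in MB157R. Since most dividing cells need the core and the cap, guides against these genes are commonly lost from a pool of knockout cells over time, and the screen reads this loss as a lower guide count than at T0.

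By these roles, the 44 genes comprised 8 alpha subunits, 7 beta subunits, 4 tissue-restricted beta subunits, 6 ATPases, 11 further subunits of base and lid, 3 factors that assemble the base (PSMD5, PSMD9 and PSMD10) and 5 regulators (PSME1 to PSME4 and PSMF1). The library held 6 guides for each, 264 in all, spread over parts A and B. After guides with a mean raw count under 10 over the 8 libraries were removed, 253 guides remained and 43 genes had the minimum of 4 guides. The exception was the beta subunit PSMB4, with only 3 guides left. Its removed guides had 1, 45 and 1 counts in T0 replicate 1 and no count in T0 replicate 2. The guide with 45 had 0, 0 and 3 counts with GSI and 0, 10 and 1 with DMSO. The 44 genes lie on 16 chromosomes, and in the GRCh38 annotation (GENCODE release 44) 8 lie on chromosome 14 and 7 on chromosome 17. Within 100000 bp of each other are 3 pairs: PSMB8 and PSMB9, which overlap on chromosome 6, PSME1 and PSME2, 4395 bp apart on chromosome 14, and PSMB11 and PSMB5, 6982 bp apart on chromosome 14.

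Libraries held 12.1 M to 18.2 M counts (M, 1e+06), and proteasome guides took 0.0917%, 0.179% and 0.158% of the counts in the GSI libraries, 0.154%, 0.155% and 0.146% in the DMSO libraries and 0.201% in each T0 library. The share in GSI replicate 1 was 0.150% once the most abundant guide of that library, which targets VPS33B and took 38.8% of its counts, was left out. All 6 day 14 libraries thus had a smaller share of proteasome guides than either T0 library. The T0 libraries stood apart from each other: over all tested guides their Spearman correlation was 0.38, the lowest of any pair, and T0 replicate 2 had no count for 11.5% of all guides, against 5.12% in T0 replicate 1. Of the 264 proteasome guides, 3, 17 and 7 had no count in the GSI libraries, 13, 26 and 19 in the DMSO libraries, and 10 and 37 in the T0 libraries. GSI replicate 1 and DMSO replicate 1 were the most alike of all pairs (Spearman 0.82), more alike than either was to another library of its own group. Each comparison with T0 therefore rests on 2 aliquots that differ widely, and values without each of them are given beside the results they move.

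The first question was whether proteasome guides were lost over the culture period. The fold change of a gene is given as the median of its guides on the log2 scale, and the test as a robust rank aggregation (RRA) of the guide p-values from the quasi-likelihood test of edgeR, adjusted over all 18570 genes tested by the Benjamini-Hochberg method. In GSI cultures against T0 the median over the 43 tested proteasome genes was -0.49, against -0.02 over all genes, and 33 of the 43 were below 0 (51.3% of all genes were). Without T0 replicate 1 the median was 0.054 (all genes 0.20), with 20 of the 43 below 0, and with a minimum mean count of 50, which left 23 of the genes, it was -0.13 (all genes -0.03), with 12 of the 23 below 0. In DMSO cultures against T0 the median was -0.46, against 0.00 over all genes, and 35 of the 43 were below 0 (49.6% of all genes). With the minimum of 50 this median was -0.19 (all genes 0.0077), with 14 of the 23 below 0, and without T0 replicate 1 it was also -0.19 (all genes 0.23). The mean count behind the minimum of 50 includes the day 14 libraries, so guides lost in culture fail it more readily. Both comparisons use the same T0 libraries and are not independent of each other.

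No proteasome gene passed an adjusted p of 0.05 in either comparison by this test. Over all genes, 0% passed in GSI against T0 and 0.0269% (5 genes) in DMSO against T0, and no single guide of the table passed in either (0% and 0%), so the fold changes of genes below are values and not calls. At an unadjusted p under 0.05, 11 proteasome genes were on the low side and 1 on the high side in GSI against T0, where 5.72% and 5.41% of all genes were. In DMSO against T0 the numbers were 13 on the low side and 2 on the high side, where the shares of all genes were 6.14% and 5.32%. A median below -1 was found for 11 proteasome genes in GSI against T0 (3.5% of all genes) and for 15 in DMSO against T0 (4.84% of all genes). The same held for single guides: 77 of 253 (30.4%) lay below -1 in GSI against T0 and 90 of 253 (35.6%) in DMSO against T0, where 16.1% and 17.8% of all gene guides did.

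When the counts of all guides of a gene were summed before the edgeR test, 2 proteasome genes passed in DMSO against T0, where 0.544% of all genes passed. PSMB7, the beta subunit that cuts after basic residues, had a fold change of -1.87 (adjusted p = 0.00547), and PSMB3, a structural beta subunit, had -2.19 (adjusted p = 0.0364). In GSI against T0 none passed (0.124% of all genes did): PSMB7 had -1.61 (adjusted p = 0.0741) and PSMB3 -1.62 (adjusted p = 0.117). The number of calls thus depended on whether guides were ranked or summed.

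The lowest medians were those of subunits of the core and the cap. Of the 44 genes, 31 encode subunits of the constitutive 20S core and the 19S cap (without PSMA8, which is among the other 13). Subunits under other symbols, such as SHFM1, are not among them and are given with the further genes below. The 30 tested of the 31 had a median of -0.60 in GSI against T0 and -0.98 in DMSO against T0. They held all 11 and all 15 of the proteasome genes below -1. The other 13 genes had medians of -0.23 and -0.25, and none lay below -1. At an unadjusted p under 0.05, 11 of the 30 (36.7%) were on the low side in GSI against T0 and 12 (40%) in DMSO against T0. None of the other 13 was in GSI against T0 and 1 (7.69%) was in DMSO against T0. The shares of all genes were 5.72% and 6.14%. No test was made of the difference between these groups.

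**Figure D1:**
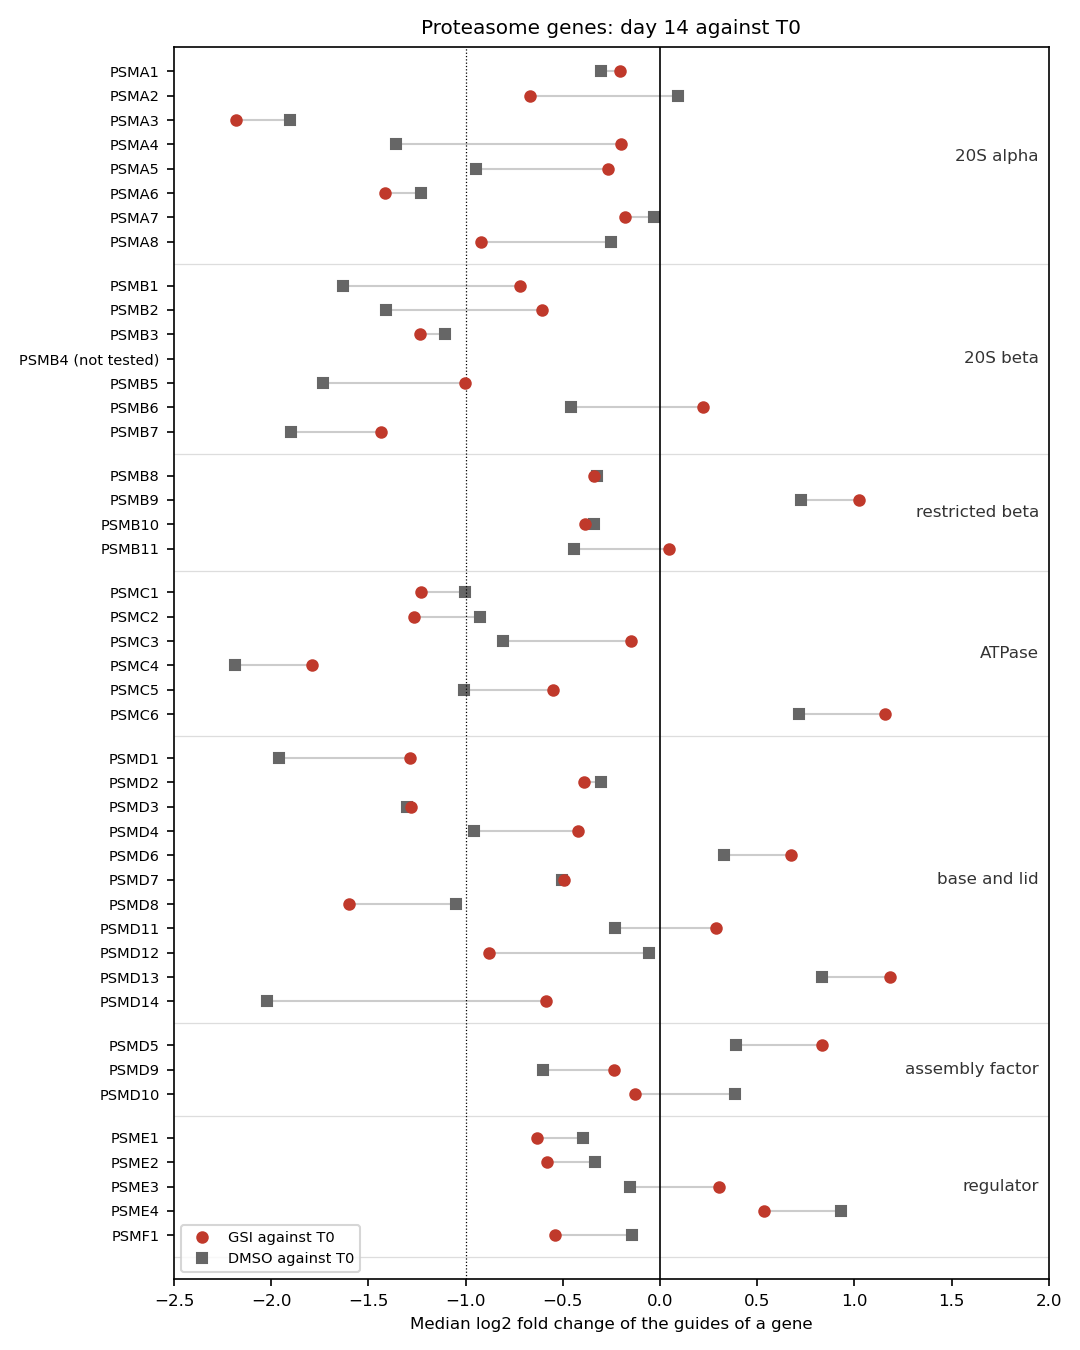
Median log2 fold change of the guides of each proteasome gene (horizontal axis), in GSI against T0 (red circles) and DMSO against T0 (grey squares), by subunit class. The dotted line marks -1: the genes to the left of it, 11 for GSI and 15 for DMSO, were alpha and beta subunits, ATPases and subunits of base and lid, and PSMB4 was not tested.

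The levels per library put the same classes low. For this, 1 was added to each normalized count, log2 was taken, and the median guide of a class was set against the average of both T0 libraries. Beta subunits stood at -0.75, -0.30 and -0.93 in the GSI libraries, -1.01, -1.54 and -1.53 in the DMSO libraries and 0.23 and -0.23 in the T0 libraries. Alpha subunits stood at -0.48, -0.82 and -1.29 with GSI, -0.73, -1.51 and -1.13 with DMSO and -0.07 and 0.07 at T0. For both rings every day 14 library was below both T0 libraries. ATPases stood at -0.30, -0.07 and -1.06 with GSI, -1.22, -0.52 and -0.58 with DMSO and -0.35 and 0.35 at T0, so that the GSI libraries overlapped T0 and the DMSO libraries did not. Subunits of base and lid stood at -0.45, -0.25 and -0.37 with GSI, -0.63, -0.76 and -0.50 with DMSO and 0.33 and -0.33 at T0, with the same pattern of overlap.

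Tissue-restricted beta subunits stood at -0.15, 0.31 and -0.10 in the GSI libraries, -0.23, -0.30 and -0.03 in the DMSO libraries and -0.07 and 0.07 in the T0 libraries. Regulators stood at -0.04, 0.13 and -0.03 with GSI, -0.03, -0.11 and 0.20 with DMSO and 0.38 and -0.38 at T0. Assembly factors stood at -0.06, 0.09 and -0.02 with GSI, -0.62, 0.15 and -0.34 with DMSO and -0.06 and 0.06 at T0. In these 3 classes the values of GSI, DMSO and T0 overlapped. The ribosome, another machine that dividing cells need, stood at -0.80 ± 0.12 with GSI and -1.10 ± 0.13 with DMSO (SD, n = 3 each), and non-targeting controls stood above 0 (0.23 ± 0.06 with GSI and 0.28 ± 0.05 with DMSO, SD, n = 3 each).

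**Figure D2:**
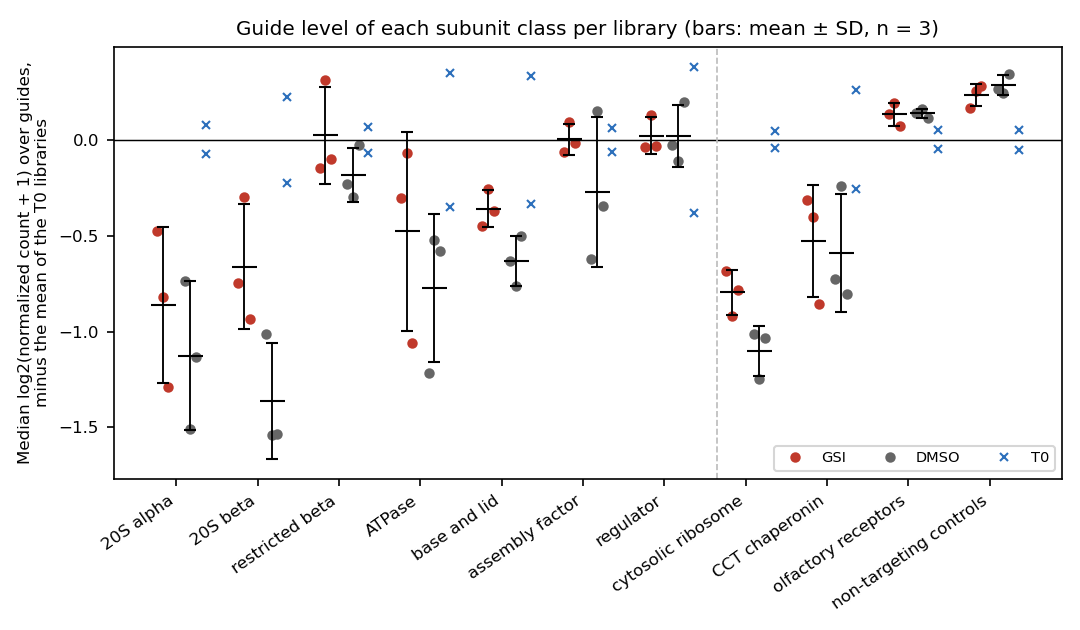
Level of each subunit class in every library (vertical axis, log2 units relative to the average T0 level), for GSI (red), DMSO (grey) and T0 (blue crosses), with the mean ± SD of the 3 cultures as bars. Alpha and beta subunits lie below both T0 libraries in all 6 cultures, while restricted subunits and regulators lie around 0, as do T0 libraries themselves with a spread of up to 0.38 on either side.

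Among the beta subunits of the core, PSMB7 (chr9:124353465-124415444, minus strand) was the clearest case. Its guides averaged 89.3, 101.1 and 34.7 normalized counts per guide in the GSI libraries, 60.1, 52.9 and 75.2 in the DMSO libraries and 214 and 243 in the T0 libraries. The groups with and without 14 days of culture did not overlap, and all 6 guides were below 0 in both comparisons. The median fold change was -1.44 in GSI against T0 (SD over guides 0.80, unadjusted p = 0.0087, adjusted p = 0.599 by RRA) and -1.90 in DMSO against T0 (SD 1.63, unadjusted p = 0.0052, adjusted p = 0.402). Its most abundant guide at T0 had 40, 231 and 4 raw counts with GSI, 2, 61 and 14 with DMSO and 556 and 802 at T0, while another kept 195, 364 and 65 with GSI and 218, 229 and 149 with DMSO, against 410 and 334 at T0. Guides of the same gene thus differed several-fold in how much was left.

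PSMB5 (chr14:23016543-23035230, minus strand), which carries the chymotrypsin-like site that bortezomib blocks, averaged 33.9, 28.8 and 21.7 normalized counts per guide with GSI, 20.9, 18.0 and 19.3 with DMSO and 65.6 and 69.9 at T0. The 3 groups did not overlap, with T0 highest and DMSO lowest. Its median fold change was -1.002 in GSI against T0 (adjusted p = 0.991 by RRA) and -1.73 in DMSO against T0 (adjusted p = 0.684). PSMB6 (chr17:4796144-4798502), the caspase-like subunit, was unlike the other cutting subunits: it averaged 89.6, 92.7 and 91.7 with GSI, 92.5, 85.8 and 56.5 with DMSO and 76.1 and 126 at T0. These ranges overlapped, and its fold changes were 0.22 and -0.46 in the 2 comparisons. A guide of PSMB6 that was removed for low counts had 61 counts in T0 replicate 1 and, of the other 7 libraries, 1 count in GSI replicate 1 only.

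PSMB3 (chr17:38752741-38764225), PSMB1 and PSMB2, structural subunits of the beta ring, had their low values in different guides. PSMB3 averaged 27.8, 22.6 and 22.9 with GSI, 22.1, 13.9 and 13.4 with DMSO and 102 and 48.2 at T0, with every day 14 library below both T0 libraries, and its fold change of -1.24 in GSI against T0 had the lowest p of any proteasome gene in that comparison (0.0033, adjusted p = 0.472 by RRA). One of its guides had 11, 14 and 6 raw counts with GSI, 9, 0 and 0 with DMSO and 390 and 213 at T0. Another had 1, 48 and 53 with GSI, 9, 50 and 36 with DMSO and 31 and 0 at T0, and so lay above 0. PSMB1 (chr6:170535120-170553307, minus strand) averaged 52.3, 68.2 and 44.9 with GSI, 35.6, 31.6 and 25.7 with DMSO and 75.4 and 75.3 at T0. The 3 groups of PSMB1 did not overlap. Its fold change was -0.72 in GSI against T0 and -1.63 in DMSO against T0 (unadjusted p = 0.0032, adjusted p = 0.340 by RRA). PSMB2 averaged 58.0, 70.1 and 50.6 with GSI, 42.9, 47.0 and 51.7 with DMSO and 125 and 31.4 at T0, and its T0 libraries lay on both sides of all others. PSMB4, with 3 guides, averaged 87.5, 76.3 and 55.5 with GSI, 102, 58.9 and 30.4 with DMSO and 78.0 and 123 at T0, and these ranges overlapped.

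Of the alpha ring, PSMA3 (chr14:58244843-58272012) had the lowest median of all proteasome genes in GSI against T0, -2.18 (unadjusted p = 0.028, adjusted p = 0.795 by RRA), and -1.91 in DMSO against T0 (unadjusted p = 0.011, adjusted p = 0.536). It averaged 69.2, 102 and 45.6 normalized counts per guide with GSI, 57.9, 71.4 and 46.7 with DMSO and 72.3 and 135 at T0. GSI replicate 2 lay above T0 replicate 1, so these groups overlapped. PSMA6 averaged 38.3, 23.7 and 14.8 with GSI, 15.1, 19.8 and 20.4 with DMSO and 75.6 and 53.7 at T0, with no overlap between culture and T0, and its fold changes were -1.41 and -1.23. PSMA4 averaged 79.3, 89.5 and 128 with GSI, 97.7, 61.9 and 52.4 with DMSO and 144 and 70.5 at T0. Its fold change was -0.20 in GSI against T0 and -1.36 in DMSO against T0 (unadjusted p = 0.043, adjusted p = 0.783 by RRA). The remaining alpha subunits PSMA1, PSMA2 and PSMA5 had medians from -0.67 to -0.21 in GSI against T0 and from -0.95 to 0.09 in DMSO against T0.

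PSMA7 (chr20:62136733-62143440, minus strand) was the proteasome gene with the widest spread between guides (SD 3.67 in GSI against T0 and 4.33 in DMSO against T0). It averaged 79.1, 110 and 57.4 with GSI, 73.5, 131 and 64.9 with DMSO and 138 and 92.7 at T0. One guide had 1, 0 and 0 raw counts with GSI, no count with DMSO and 152 and 4 at T0, while another had 54, 11 and 17 with GSI, 22, 12 and 32 with DMSO and only 3 and 2 at T0. Its median fold change was -0.18 in GSI against T0 and -0.03 in DMSO against T0, but RRA, which reads the lowest-ranked guides, gave an unadjusted p of 0.0090 in GSI against T0 (adjusted p = 0.600).

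Among the ATPases of the base, 5 of 6 had medians below 0 in each comparison. PSMC4 (chr19:39971165-39981764) averaged 31.0, 48.4 and 29.2 with GSI, 22.0, 17.5 and 41.9 with DMSO and 55.4 and 104 at T0. Every day 14 library lay below both T0 libraries. Its fold change was -1.79 in GSI against T0 (SD over guides 2.09, unadjusted p = 0.017, adjusted p = 0.688 by RRA) and -2.19 in DMSO against T0 (SD 2.64, unadjusted p = 0.0021, adjusted p = 0.310). The median in GSI against T0 rested on T0 replicate 2: without that library it was 0.17. In DMSO against T0 the median of PSMC4 stayed between -2.98 and -0.86 over the alternatives run. A guide of PSMC4 with 12, 0 and 4 raw counts with GSI and 1, 1 and 6 with DMSO had 156 and 42 at T0, whereas a guide with 77, 194 and 92 with GSI and 87, 86 and 130 with DMSO had 129 and 140.

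PSMC1 averaged 61.9, 100 and 46.1 with GSI, 85.8, 97.2 and 38.8 with DMSO and 144 and 150 at T0, and PSMC2 averaged 68.8, 49.6 and 47.9 with GSI, 61.3, 58.9 and 58.9 with DMSO and 107 and 137 at T0. For both, T0 was above every culture, with fold changes of -1.23 and -1.26 in GSI against T0 and -1.001 and -0.93 in DMSO against T0. PSMC3 averaged 125, 159 and 155 with GSI, 112, 141 and 148 with DMSO and 179 and 165 at T0, a smaller gap with fold changes of -0.15 and -0.81. PSMC5 had fold changes of -0.55 and -1.01. The exception was PSMC6 (chr14:52707178-52728590): it averaged 78.8, 68.7 and 89.0 with GSI, 69.5, 92.1 and 75.4 with DMSO and 41.5 and 27.2 at T0. All 6 cultures were above both T0 libraries, with fold changes of 1.16 in GSI against T0 (unadjusted p = 0.056 on the high side, adjusted p = 0.920 by RRA) and 0.72 in DMSO against T0 (unadjusted p = 0.048, adjusted p = 0.940). One PSMC6 guide, with 3 and 11 raw counts at T0, had 56, 84 and 47 with GSI and 172, 205 and 77 with DMSO.

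In the base and lid, PSMD1 (chr2:231056845-231173116), a scaffold of the base, had the lowest p of all proteasome genes in DMSO against T0. It averaged 72.6, 104 and 60.2 with GSI, 66.4, 43.1 and 69.4 with DMSO and 123 and 198 at T0. No culture reached the lower T0 library. Its fold change was -1.29 in GSI against T0 (SD over guides 1.39, unadjusted p = 0.037, adjusted p = 0.836 by RRA) and -1.96 in DMSO against T0 (SD 1.84, adjusted p = 0.142). A guide of PSMD1 had 55, 165 and 56 raw counts with GSI, 15, 4 and 7 with DMSO and 190 and 344 at T0, another had 16, 69 and 32 with GSI, 44, 22 and 29 with DMSO and 125 and 269 at T0, and another kept 182, 153 and 150 with GSI and 266, 214 and 219 with DMSO, against 202 and 303 at T0.

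PSMD14, the lid enzyme that removes ubiquitin chains, averaged 66.3, 92.0 and 84.2 with GSI, 82.7, 57.9 and 40.9 with DMSO and 125 and 122 at T0. T0 was above all cultures, and the median fold changes were -0.59 in GSI against T0 (unadjusted p = 0.030, adjusted p = 0.807 by RRA) and -2.02 in DMSO against T0 (unadjusted p = 0.027, adjusted p = 0.677). Without T0 replicate 1, the median of PSMD14 in GSI against T0 was 0.75. PSMD4, a ubiquitin receptor of the cap, averaged 56.9, 56.4 and 33.9 with GSI, 59.6, 38.0 and 49.0 with DMSO and 67.6 and 115 at T0. Its guides split: a pair had 35, 12 and 5 and 6, 10 and 16 raw counts with GSI, 42, 9 and 8 and 7, 28 and 15 with DMSO, and 134 and 321 and 86 and 216 at T0, while 3 of the 6 guides were above 0 in GSI against T0, so its median was only -0.42 with an unadjusted p of 0.0057 (adjusted p = 0.549 by RRA). PSMD12 averaged 34.5, 32.2 and 48.5 with GSI, 31.8, 56.5 and 34.5 with DMSO and 99.2 and 116 at T0. Its culture and T0 values did not overlap, while the medians were -0.88 and -0.05.

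PSMD8 (-1.60 in GSI against T0 and -1.05 in DMSO against T0) and PSMD3 (-1.28 and -1.30) were also below -1, and PSMD2 (-0.39 and -0.30), PSMD7 (-0.49 and -0.50) and PSMD11 (0.29 and -0.23) were nearer to 0. PSMD6 (0.68 and 0.33) and PSMD13 (1.18 and 0.83) had positive medians. PSMD13 averaged 122, 150 and 87.1 with GSI, 139, 136 and 137 with DMSO and 168 and 141 at T0, and its guides ran in both directions: one had 133, 345 and 90 raw counts with GSI, 141, 97 and 120 with DMSO and 838 and 695 at T0, and another had 175, 336 and 116 with GSI, 241, 184 and 148 with DMSO and 139 and 20 at T0. It was therefore under an unadjusted p of 0.05 on both sides in both comparisons (low side 0.049 in GSI against T0 and 0.0081 in DMSO against T0, high side 0.041 and 0.024).

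**Figure D3:**
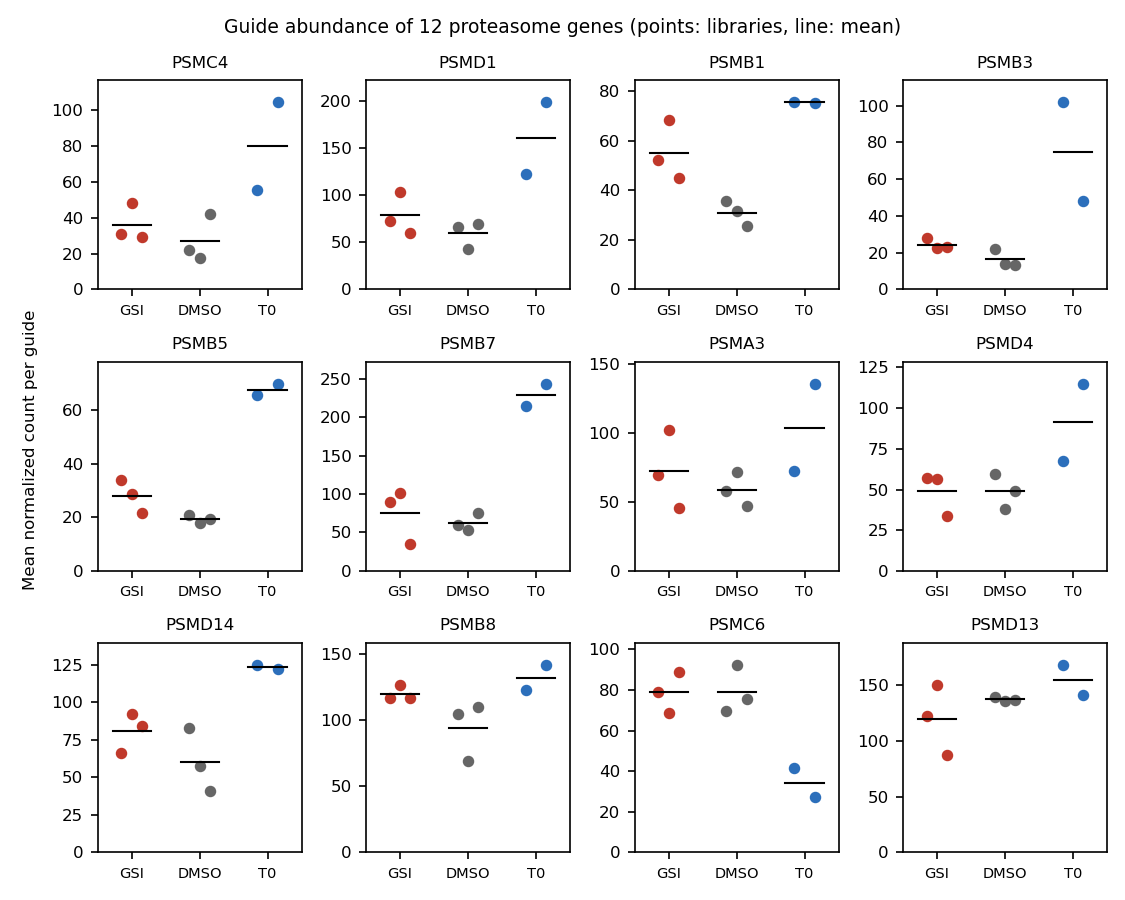
Mean normalized count per guide (vertical axes, from 0) of 12 proteasome genes in each GSI, DMSO and T0 library, with the group mean as a line. PSMB7, PSMB5, PSMB3, PSMB1, PSMD1, PSMD4, PSMD14 and PSMC4 are below both T0 libraries in all 6 cultures, PSMA3, PSMB8 and PSMD13 overlap T0 with GSI, and PSMC6 is above T0.

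Per library, every GSI library was below every T0 library for 18 of the 44 genes, where 19.2% of all genes tested were, and every DMSO library was below every T0 library for 19 of the 44, where 17.1% were. Of the 18, 16 were alpha, beta, ATPase, base or lid subunits, and the others were the regulators PSME1 and PSMF1. Guides from library parts A and B were compared as well. Over the 44 genes, the medians of the guides from part A and part B correlated with r = 0.11 in GSI against T0 and r = 0.27 in DMSO against T0, a description over genes that share their libraries. Both parts were low, with medians over genes of -0.25 in part A and -0.68 in part B in GSI against T0 and of -0.53 and -0.78 in DMSO against T0.

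The tissue-restricted subunits allow a comparison within each position of the core. PSMB8, the immune form of PSMB5, averaged 117, 127 and 117 normalized counts per guide with GSI, 105, 69.1 and 110 with DMSO and 123 and 142 at T0. PSMB11, the thymic form, averaged 130, 144 and 128 with GSI, 82.7, 108 and 123 with DMSO and 156 and 118 at T0. Set beside the fold changes of PSMB5 (-1.002 in GSI against T0 and -1.73 in DMSO against T0), those of PSMB8 were -0.34 and -0.32 and those of PSMB11 were 0.05 and -0.44. PSMB10, the immune form of PSMB7, averaged 129, 135 and 82.2 with GSI, 168, 168 and 72.0 with DMSO and 144 and 125 at T0, with fold changes of -0.39 and -0.34, against -1.44 and -1.90 for PSMB7. In these 3 pairs the restricted form was nearer to 0 than its constitutive counterpart, though the difference was not tested.

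PSMB9, the immune form of PSMB6, averaged 92.7, 142 and 114 with GSI, 117, 109 and 130 with DMSO and 83.4 and 95.5 at T0, with fold changes of 1.02 and 0.72 against 0.22 and -0.46 for PSMB6. PSMA8, the testis form of PSMA7, averaged 82.8, 71.7 and 69.1 with GSI, 85.6, 75.6 and 95.7 with DMSO and 67.3 and 120 at T0, with fold changes of -0.92 and -0.25 against -0.18 and -0.03 for PSMA7. For PSMA8 the T0 libraries lay on both sides of all cultures. PSMA8 had lower fold changes than its counterpart, while the restricted forms of the cutting subunits had higher ones than theirs. Both PSMB9 and PSMA8 were farther from 0 than their counterparts, unlike the 3 pairs above. Of the 24 guides of PSMB8 to PSMB11, 2 (8.33%) were below -1 in GSI against T0 and 3 (12.5%) in DMSO against T0. Of the 38 tested guides of PSMB1 to PSMB7, 13 (34.2%) and 19 (50%) were. Among all gene guides, the shares were 16.1% and 17.8%.

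Single guides show what lies behind these medians. For PSMB8 the guide that was lowest in GSI against T0 had 16, 3 and 20 raw counts with GSI, 59, 26 and 13 with DMSO and 77 and 26 at T0, and its most abundant had 155, 349 and 232 with GSI, 136, 102 and 188 with DMSO and 421 and 227 at T0. For PSMB10 a guide with 182, 351 and 119 with GSI and 216, 201 and 118 with DMSO had 340 and 359 at T0, and another had 70, 228 and 22 with GSI, 208, 308 and 24 with DMSO and 69 and 0 at T0. For PSMB9 a guide had 86, 262 and 99 with GSI, 84, 105 and 138 with DMSO and 126 and 0 at T0, and for PSMB11 a guide had 55, 78 and 110 with GSI, 29, 60 and 103 with DMSO and 32 and 0 at T0. The lowest guide of these 4 genes stood at -1.72 in GSI against T0. Among constitutive beta subunits, the lowest tested guides of PSMB5, PSMB3, PSMB7 and PSMB2 stood at -5.13, -4.61, -2.91 and -1.79. Those of PSMB6, PSMB1 and PSMB4 stood at -1.67, -0.83 and -0.76, above -1.72. PSMB9, PSMB10 and PSMB11 each had 1 guide with no count in T0 replicate 2 alone.

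**Figure D4:**
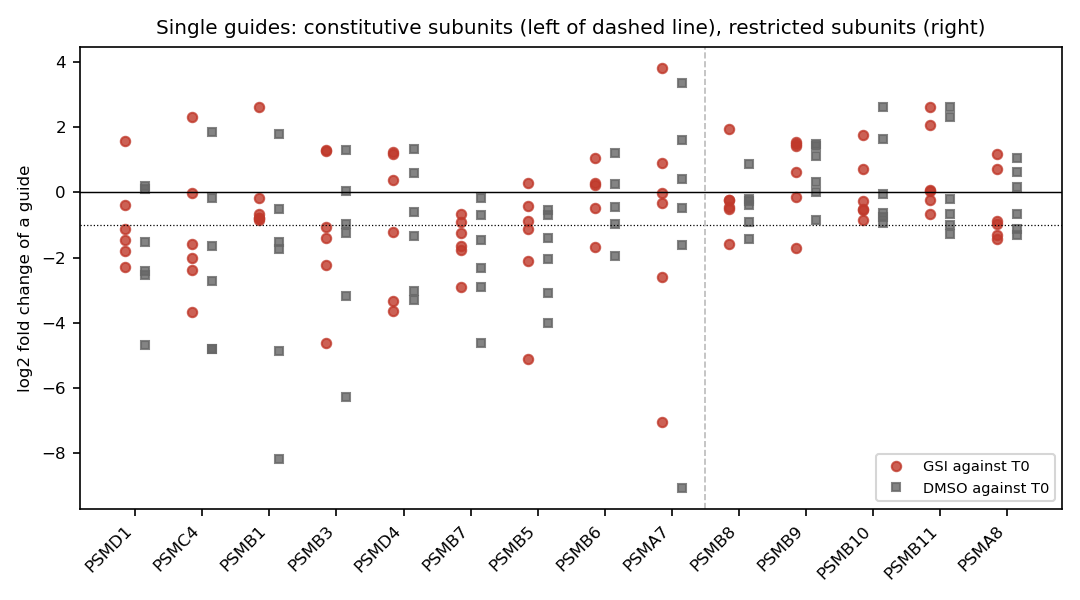
Log2 fold change of every tested guide (vertical axis) of 14 proteasome genes, in GSI against T0 (red circles) and DMSO against T0 (grey squares); constitutive subunits stand left of the dashed line and restricted forms right of it. Guides of PSMB7 are all below 0, and those of PSMA7 run from the lowest to the highest values plotted. Those of PSMB8 to PSMB11 and PSMA8 stay above -2, as do those of the constitutive PSMB6. Folds of guides with no count in a group depend on the prior count of the fit.

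Assembly factors and regulators differed among themselves. PSMD9 averaged 71.3, 108 and 56.9 with GSI, 73.5, 88.1 and 70.2 with DMSO and 82.8 and 137 at T0 (fold changes -0.23 and -0.60). PSMD10, known as gankyrin, averaged 134, 127 and 148 with GSI, 142, 135 and 143 with DMSO and 144 and 73.4 at T0 (-0.13 and 0.38), and PSMD5 averaged 107.5, 107 and 104 with GSI, 93.6, 82.6 and 57.2 with DMSO and 46.1 and 80.6 at T0 (0.84 and 0.39), with every GSI library above both T0 libraries. PSME1, a subunit of the immune-linked activator ring, averaged 85.8, 70.1 and 76.4 with GSI, 64.5, 80.8 and 108 with DMSO and 136 and 116 at T0 (-0.63 and -0.40). PSMF1, known as an inhibitor of the core in cell extracts, averaged 126, 132 and 122 with GSI, 101.5, 117 and 144 with DMSO and 190 and 183 at T0. All cultures were below T0 for PSME1 and PSMF1, and PSMF1 had fold changes of -0.54 and -0.14 (unadjusted p = 0.090 and 0.025, adjusted p = 0.934 and 0.660 by RRA). PSME2 (-0.58 and -0.33), PSME3 (0.30 and -0.16) and PSME4 (0.54 and 0.93) completed the group.

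The 34 further genes of the ubiquitin and proteasome system, among them assembly chaperones, ubiquitin genes, activating enzymes and shuttle factors, had a median of -0.31 in GSI against T0 and -0.19 in DMSO against T0. On the low side at an unadjusted p under 0.05 were 5 of them (14.7%) in GSI against T0 and 6 (17.6%) in DMSO against T0, and on the high side 2 and 2, where the shares of all genes were 5.72% and 6.14% on the low side and 5.41% and 5.32% on the high side. None passed after adjustment. UBA1, the main ubiquitin-activating enzyme, had fold changes of -2.09 in GSI against T0 (adjusted p = 0.377 by RRA) and -1.56 in DMSO against T0, the unfoldase VCP -1.39 and -1.65, and SHFM1, which encodes a small lid subunit, -1.12 and -1.32. The CCT chaperonin, used as another essential complex, had medians of -0.38 and -0.63 over 8 genes, the cytosolic ribosome -0.67 and -1.03 over 84 and olfactory receptors, taken as genes not needed here, 0.09 and 0.12 over 366.

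The last question was whether GSI altered the loss of proteasome guides relative to DMSO. No proteasome gene and no guide passed an adjusted p of 0.05, and none did over all genes and guides (0% each, and 0% with counts summed over guides). The median over the 43 genes was 0.18, against -0.02 over all genes, and 12 of the 43 were below 0, where 52.7% of all genes were. At an unadjusted p under 0.05, 5 proteasome genes (11.6%) were on the high side (5.01% of all genes) and none on the low side (5.07%). Other essential complexes had similar values: the cytosolic ribosome had a median of 0.16 and the CCT chaperonin 0.18. Of their genes, 31.0% and 37.5% were below 0, and 10.7% and 25% were on the high side. The further genes of the ubiquitin and proteasome system had a median of 0.03, and olfactory receptors -0.01. The shift was thus not particular to proteasome genes. Every GSI library was above every DMSO library for 6 of the 44 (3.7% of all genes), namely PSMB1, PSMB3, PSMB5, PSMB8, PSMB11 and PSMD5, and below for none (5.85%). The median of 0.18 depends on the scaling: with library totals, which count the VPS33B guide of GSI replicate 1, it was -0.010, while that of all genes was -0.22. The gap to all genes was thus 0.20 by median-ratio scaling and 0.21 by library totals.

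The beta ring had the widest gap between treatments. Its median fold change was 0.54, with all 6 tested genes above 0 (0.27 to 1.21), against 0.20 for base and lid, 0.19 for the alpha ring, 0.12 for restricted beta subunits, 0.11 for regulators, 0.06 for assembly factors and 0.05 for ATPases. PSMB1 had the highest value, 1.21 (SD over guides 2.79, adjusted p = 0.547 by RRA), from 52.3, 68.2 and 44.9 normalized counts per guide with GSI and 35.6, 31.6 and 25.7 with DMSO. A PSMB1 guide had 10, 31 and 20 raw counts with GSI, none in any DMSO library and 84 and 0 at T0, another had 18, 90 and 3 with GSI, 0, 0 and 5 with DMSO and 90 and 42 at T0, and another had 89, 162 and 113 with GSI, 37, 82 and 53 with DMSO and 205 and 228 at T0. With counts summed over guides PSMB1 had 0.83 in the edgeR test (unadjusted p = 0.0081 on the high side). The adjusted p of that test, taken from p-values that count both directions, was 0.9998.

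PSMD14 had the next highest median, 0.82 (unadjusted p = 0.057 on the high side, adjusted p = 0.964 by RRA). By p, PSMB1 was followed by PSMD1 with 0.77 (unadjusted p = 0.0071, adjusted p = 0.830), and PSMB2 with 0.41, PSMD3 with 0.78 and PSMA4 with 0.43 were the others on the high side. PSMD3 averaged 51.7, 58.8 and 41.0 with GSI, 21.3, 27.2 and 48.8 with DMSO and 88.4 and 18.0 at T0. For PSMD1, PSMB2, PSMD3 and PSMA4 the GSI and DMSO libraries overlapped in mean count. The lowest p on the low side was that of PSMD13 (-0.18, unadjusted p = 0.063), followed by PSMC6 (0.03, 0.090), PSMB10 (-0.28, 0.11) and PSMA7 (-0.15, 0.224), and the counts of these 4 genes overlapped between GSI and DMSO. The number of genes on the high side varied with the library left out, from 2 without GSI replicate 2 to 11 without DMSO replicate 3. No share of all genes in these fits stands beside those counts. With each library left out, the median of the proteasome genes stayed above that of all genes. The gap ran from 0.13 (without DMSO replicate 3) to 0.31 (without DMSO replicate 2). With GSI replicate 1 and DMSO replicate 1 both left out, the median was 0.18.

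**Figure D5:**
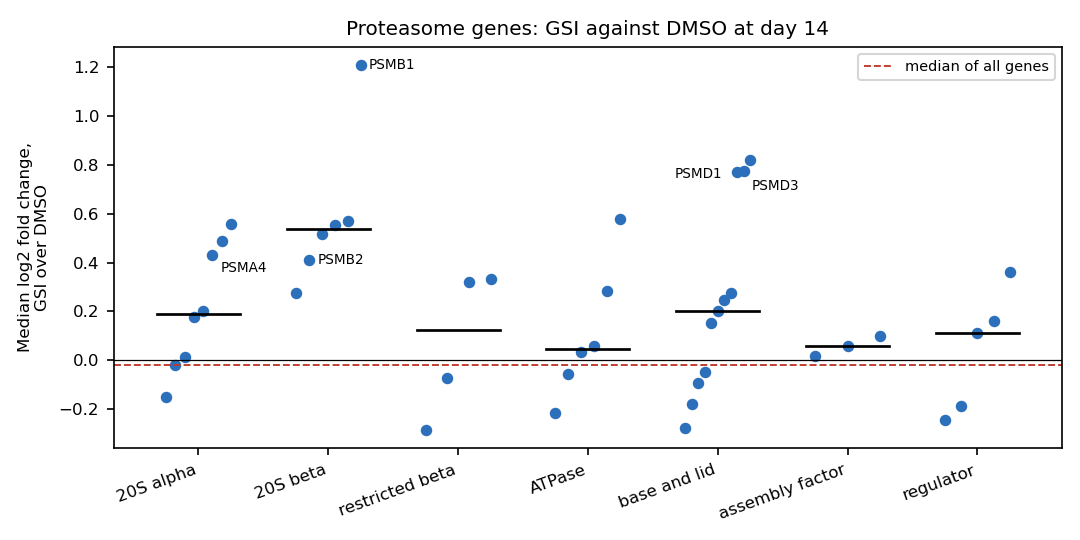
Median log2 fold change of the guides of each proteasome gene in GSI over DMSO cultures (vertical axis), by subunit class, with class medians as black bars and the median of all genes (-0.02) as a dashed line. Genes with an unadjusted p under 0.05 on the high side are named, none passed after adjustment, and the 6 tested genes of the beta ring all lie above 0.

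The comparisons with T0 also moved with the T0 library used. Without T0 replicate 1, the median of the proteasome genes was 0.054 in GSI against T0 (all genes 0.20) and -0.19 in DMSO against T0 (all genes 0.23). Without T0 replicate 2, the median of the proteasome genes was -0.38 in GSI against T0 (all genes 0.08) and -0.35 in DMSO against T0 (all genes 0.11). Their median was below that of all genes without either T0 library, by 0.14 (without T0 replicate 1) and 0.46 (without T0 replicate 2) with GSI and by 0.42 and 0.45 with DMSO.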

How the data were processed

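Guide cassettes were amplified from genomic DNA. The authors counted reads per guide with MAGeCK 0.5.9.2 after trimming (bcl2fastq 2.19) and a quality check (FastQC 0.11.5), and they deposited these raw counts for each library. The deposited normalized table was not used. In R 4.3.3, 116852 of 119461 guides had at least 10 raw counts on average over the 8 libraries and were tested with edgeR 4.0.16 (limma 3.58.1) using median-ratio size factors, with only the groups compared in a fit. Genes with at least 4 guides were tested by RRA (alpha 0.25, 1e+06 draws, smallest p 1e-06), written anew and tested on simulated data. Normalized counts of a gene are means over its tested guides. Genes named in full were the pair with the lowest p per class in each comparison with T0, the 4 with the lowest p per side of GSI against DMSO, and restricted subunits with their counterparts; further members named were chosen after their values were seen. The members and lists were chosen with earlier results of these data known. Replicates are cultures or aliquots of 1 pool, so p-values measure the spread between these only, and reads without molecular identifiers are not independent molecules. Guide sequences were not analysed here.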

Additional observations from a re-analysis of the deposited data

How the results depend on the processing

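Comparisons with T0 rest on 2 aliquots, and guides of a gene varied widely, so a gene that was not called is not shown to be unaffected. No proteasome gene passed an adjusted p of 0.05 under any alternative run with RRA, but 2 passed in DMSO against T0 with counts summed over guides. In GSI against T0, that test gave 2 genes on the high side at an unadjusted p under 0.05 and a fold change of 0.32 for PSMD10; in DMSO against T0 it gave 1 gene on the high side, -0.17 for PSMD13 and 0.019 for PSMB10; in GSI against DMSO it gave -0.0035 for PSMC6.

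A minimum mean count of 50 left 23 proteasome genes. The mean includes the day 14 libraries, so guides lost in culture fail it more readily, which by itself moves a median against T0 toward 0. The medians were -0.13 in GSI against T0 and -0.19 in DMSO against T0. All genes had -0.03 and 0.0077 under this minimum. On the low and high side were 4 and 3 of the 23 genes in GSI against T0, and 4 and 1 in DMSO against T0. In GSI against DMSO, 3 genes were on the high side. For the alternatives of this section no share of all genes on a side is given. Counts of genes on a side therefore have no background to be read against here. Scaling to the non-targeting controls gave medians of -0.68 and -0.71 against T0, where all genes had -0.22 and -0.25. With library totals, the GSI against DMSO median was -0.010, with 1 gene on the low side, and PSMC6 had -0.010. DESeq2 1.42.0 called 23 proteasome guides in GSI against T0 (9.09%, against 6.76% of all guides) and 27 in DMSO against T0 (10.7%, against 5.66%), and put 1 gene on the low side in GSI against DMSO. Without a filter, and in a fit of all 8 libraries, 1 gene was on the high side in DMSO against T0.

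Same-numbered GSI and DMSO libraries deviated together with correlations of 0.28, 0.06 and 0.12. Pairs with different numbers ran from -0.16 to 0.046, so every same-numbered value was higher. The main tests took no pairing, since not all values were over 0.1, but a pairing by number remains possible. The median in GSI against DMSO was 0.29 (all genes 0.036) when the replicate number was a block. With the replicate number as a block, medians were -0.30 in GSI against T0 and -0.21 in DMSO against T0 (all genes 0.21 and 0.18), PSMD9 had 0.69 and PSMD10 0.23 in GSI against T0, 1 gene was on the low side in GSI against DMSO, and no call changed.

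Leaving out 1 library at a time, the median ranged from -0.57 (without GSI replicate 1) to 0.054 (without T0 replicate 1) in GSI against T0, from -0.68 (without DMSO replicate 1) to -0.19 (without T0 replicate 1) in DMSO against T0 and from 0.14 (without DMSO replicate 3) to 0.32 (without DMSO replicate 2) in GSI against DMSO. Genes on the low side numbered 7 to 11 in GSI against T0 and 0 to 2 in GSI against DMSO, and genes on the high side 0 to 2 in each comparison with T0 and 2 to 11 in GSI against DMSO. Guides called numbered 0 to 55 in GSI against T0 (55 without T0 replicate 1, or 21.7%, against 18.1% of all guides, and 11 without T0 replicate 2) and 0 to 21 in DMSO against T0 (21 without T0 replicate 1, or 8.30%, against 7.13%). Without T0 replicate 2, the share of proteasome guides called in GSI against T0 was 4.35%, below the 4.72% of all guides. In fits without a T0 library, the lone T0 library is assumed to vary like the other group, so nothing is concluded from these counts. Fold changes that crossed 0 ranged in GSI against T0 from -0.29 to 0.82 for PSMD10, -1.31 to 0.75 for PSMD14, -0.55 to 0.054 for PSMA7 and -2.59 to 0.17 for PSMC4. In DMSO against T0 they ranged from -0.73 to 0.028 for PSMB10, -0.47 to 0.080 for PSMF1, -0.73 to 0.10 for PSMB11 and -0.90 to 0.043 for PSMD9. In GSI against DMSO they ranged from -0.36 to 0.052 for PSMD13, -0.20 to 0.23 for PSMC6, -0.60 (without GSI and DMSO replicate 1) or, with 1 library left out, -0.55 to 0.21 for PSMA7 and -0.62 to 0.34 for PSMB10. The cause of these shifts was not tested. Leaving out GSI and DMSO replicate 1 together was chosen after the data were seen, and changed no count or direction listed here.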
